A study of Mus musculus with 18 samples.

Results

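Genes of cartilage matrix and cartilage formation were followed in mouse hearts, namely Clec3a, Chad, Angptl7, Fmod, Acan, Comp, Cytl1 and Sox9. They are 8 of 25731 gene symbols in the count table, and all 8 were among the 15088 symbols that passed the filter on low counts. Clec3a, Chad and Angptl7 were taken because they had some of the largest falls in the injured hearts, and the other 5 were added as genes of the same tissue type, with results of these hearts already known. Hearts of C57BL/6 wild-type mice, adult males by the labels, were collected at day 7 in 3 groups of 6 animals. SHAM hearts had sham surgery, IR hearts had ischemia-reperfusion (blood flow is stopped and then restored), and IR+Decursin hearts had ischemia-reperfusion and decursin, a coumarin compound of Angelica root. Dose and route of decursin are not stated, and the labels name no transgene or pooled animals. Each group is also its own batch in the labels, so batch and group cannot be told apart.

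Cartilage is a matrix of collagen fibrils filled with proteoglycans, and the transcription factor Sox9 switches on many of its genes in chondrocytes. The heart has no hyaline cartilage in its muscle, but the fibrous tissue of its valves and annuli makes several of the same proteins, and scar fibroblasts can also take up cartilage and tendon genes. Among the 8 genes, Clec3a encodes a C-type lectin first known from cartilage, Chad encodes chondroadherin, a leucine-rich repeat protein that binds cells and collagen, and Comp encodes a pentameric thrombospondin that binds collagen fibrils. Fmod encodes fibromodulin, a small leucine-rich proteoglycan that shapes collagen fibrils, and Acan encodes aggrecan, the large hyaluronan-binding proteoglycan of cartilage. Angptl7 is a secreted angiopoietin-like protein of matrix-rich tissues, and Cytl1 is a small secreted protein linked to chondrogenesis.

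Libraries held 27.5 to 35.0 M counts. Mitochondrial transcripts took 28.4 to 32.8% of the counts of SHAM libraries, 20.1 to 28.3% of IR and 20.9 to 27.5% of IR+Decursin libraries. In IR 3, IR 4 and IR+Decursin 2, Xist, a transcript of the inactive X chromosome, had 14072 to 14232 counts against at most 8 in the other 15 libraries, which goes against the label of male animals, and results are given below with and without these 3 where they move. Col1a1, the main scar collagen gene, was at 80.4 to 128 CPM (counts per 1 M counts, with library factors) in SHAM and 1970 to 2800 CPM in IR. In IR+Decursin it was at 1340 to 2770 CPM in 4 libraries, 280 CPM in IR+Decursin 5 and 118 CPM, within the SHAM range, in IR+Decursin 6. IR+Decursin 6 also stood apart in that the single gene model Gm26917 took 7.54% of its counts, against at most 0.915% in any other library. Its library factor, 0.831, was the lowest of the 18. The atrial myosin light chain gene Myl7 had 6981 counts in IR 2 and 6459 in IR+Decursin 6 and at most 1614 in the other 16. The cardiomyocyte markers were present in every library (summed level 43400 to 93900 CPM).

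Compared per gene length in the SHAM hearts, Cytl1 was the most abundant of the 8 at 15.7 ± 4.83 FPKM (counts per kilobase and per 1 M counts of the library, SD, n = 6). Angptl7 (8.98 ± 3.16 FPKM), Comp (7.26 ± 1.78), Chad (6.83 ± 2.66) and Fmod (5.88 ± 1.16) followed, and neighbours in this order did not differ beyond the spread of their difference within libraries. Clec3a was lower at 4.31 ± 1.64 FPKM. Sox9 and Acan were at the bottom, with 0.412 ± 0.093 and 0.0409 ± 0.0121 FPKM. In IR the order changed: Cytl1 stayed first (9.43 FPKM) with Comp (4.38) and Fmod (2.84) next. Sox9 (1.71 FPKM) then stood level with Angptl7 (1.68), and both were above Chad (1.17) and Clec3a (0.473) in mean level. In IR+Decursin the means ran from Cytl1 at 15.5 FPKM through Comp at 6.50, Angptl7 at 5.08, Fmod at 4.74, Chad at 4.59 and Clec3a at 3.30 to Sox9 at 1.54 and Acan at 0.0653. There Angptl7, Fmod and Chad did not differ beyond their spread, nor did Clec3a and Sox9.

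Promoter sequence was at hand for 5 of the 8 genes in RefSeq on build GRCm38.p6 (Chad, Angptl7, Fmod, Acan and Cytl1). Among these, Chad, Angptl7 and Cytl1 belong to the set of genes that moved together between libraries (below), and the 250 bases before their annotated start are shown for that reason, 5′ to 3′ on the gene's own strand. Chad lies at chr11:94564797-94565046 on the plus strand, Angptl7 at chr4:148500463-148500712 on the minus strand and Cytl1 at chr5:37735269-37735518 on the plus strand. Capitals mark matches to TATAAA (the TATA box) and to ACAAT and ACAAAG (short SOX-type words), searched on both strands.
Chad: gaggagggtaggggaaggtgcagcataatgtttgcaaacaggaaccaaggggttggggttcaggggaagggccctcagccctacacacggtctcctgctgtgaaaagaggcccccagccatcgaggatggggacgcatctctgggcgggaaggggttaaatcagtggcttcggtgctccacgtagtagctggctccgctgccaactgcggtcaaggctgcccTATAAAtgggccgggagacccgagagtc
Angptl7: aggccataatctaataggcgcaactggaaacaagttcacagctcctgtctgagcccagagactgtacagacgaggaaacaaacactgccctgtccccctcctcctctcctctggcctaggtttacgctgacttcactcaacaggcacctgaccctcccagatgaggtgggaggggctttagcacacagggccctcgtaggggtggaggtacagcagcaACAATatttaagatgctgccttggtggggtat
Cytl1: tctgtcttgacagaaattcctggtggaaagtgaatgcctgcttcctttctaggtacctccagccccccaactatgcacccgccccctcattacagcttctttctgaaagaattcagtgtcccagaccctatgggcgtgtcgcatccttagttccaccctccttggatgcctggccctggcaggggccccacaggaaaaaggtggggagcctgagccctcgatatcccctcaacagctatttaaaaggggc
Chad held 1 TATAAA, 28 bases before the start, and no SOX-type word. Angptl7 held 1 ACAAT, 32 bases before the start, and Cytl1 held none of the 3 words, as did Fmod and Acan. Over 32851 RefSeq promoter windows of the same length, 12.4% held TATAAA, 27.7% held ACAAT and 16.5% held ACAAAG, so single matches of this kind are common. The windows were 60.4% G and C in Chad, 54.4% in Angptl7 and 54.8% in Cytl1, against a median of 52.4% over all windows and 74.4% in Acan. None of the 3 words searched was in all of the windows shown.

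Clec3a, Chad and Angptl7, the members chosen by their fall, were 6.66 to 11.4 times lower in IR than in SHAM by the fit. Fmod, Comp and Cytl1 were 2.04 to 2.55 times lower, Acan was near the limit of detection in both groups, and Sox9 was 3.34 times higher. These values used the contrast that guided the choice, so they are a description with no test. Also as a description, 7 of the 8 genes passed the edgeR threshold (false discovery rate under 0.05), 6 lower and 1 higher. Of all genes, 46.9% did (25.3% higher, 21.7% lower). In whole-heart RNA, fewer cells of a type and less RNA per cell cannot be told apart.

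Clec3a stood at 4.90, 21.4, 13.2, 14.9, 13.6 and 18.2 CPM in SHAM 1 to 6. In IR 1 to 6 it was at 1.20, 3.76, 0.319, 0.720, 1.20 and 0.438 CPM. In IR+Decursin 1 to 6 it was at 12.1, 1.94, 8.88, 20.4, 2.16 and 11.2 CPM. In CPM the IR libraries were all below every SHAM library, as for 11.6% of all genes tested. In FPKM, which carry no library factors, IR 2 (1.43) was just above SHAM 1 (1.39). The IR+Decursin libraries fell into 4 within the SHAM range and 2 within the IR range. The group means were 14.4 ± 5.58, 1.27 ± 1.28 and 9.46 ± 6.93 CPM (SD, n = 6 each). The fitted log2 fold change was -3.51 ± 0.66 (SE) for IR against SHAM, 2.91 ± 0.65 for IR+Decursin against IR and -0.60 ± 0.57 for IR+Decursin against SHAM. Without IR 2 the first of these was -4.21. Clec3b, which encodes the related lectin tetranectin, was not called (log2 fold change 0.09, adjusted p = 0.671 in edgeR's quasi-likelihood test with Benjamini-Hochberg adjustment, as for every adjusted p of a single gene below).

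Chad stood at 4.16, 20.1, 13.7, 12.0, 14.0 and 13.5 CPM in SHAM 1 to 6 and at 1.80, 4.91, 0.406, 0.822, 2.05 and 0.822 CPM in IR 1 to 6. The groups overlapped in 1 place, since IR 2 was above SHAM 1. In IR+Decursin 1 to 6 Chad was at 8.36, 2.70, 10.6, 12.7, 3.71 and 6.42 CPM. Again libraries 2 and 5 were within the IR range and the other 4 within the SHAM range. The log2 fold changes were -2.85 ± 0.54, 2.05 ± 0.53 and -0.80 ± 0.49 in the order above, and the first was -3.45 without IR 2. Chad lies inside Acsf2 on the opposite strand in the GENCODE annotation of the older build, and the strand setting of the counting is not given, so reads of the pair may not be told apart. Acsf2 itself was 0.49 ± 0.16 lower in IR on the log2 scale, a smaller difference than that of Chad.

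Angptl7 ranged from 12.6 CPM in SHAM 4 to 30.8 CPM in SHAM 2 (SHAM median 18.6). In IR it ranged from 1.4 CPM in IR 6 to 6.23 CPM in IR 2 (median 2.65), with no overlap. Of 15088 genes, 11.6% had every IR library below every SHAM library. In IR+Decursin 1 to 6 Angptl7 was at 6.39, 5.13, 13.6, 20.5, 4.72 and 10.5 CPM, which put 4 libraries above every IR library but only 2 within the SHAM range. The log2 fold changes were -2.73 ± 0.42, 1.69 ± 0.42 and -1.05 ± 0.39. Angptl7 lies inside Mtor on the opposite strand in the same annotation, and Mtor was at -0.19 ± 0.12 in IR against SHAM. Among its relatives, Angptl4, which inhibits lipoprotein lipase, rose in IR by 2.95 on the log2 scale (adjusted p = 0.000909). Angptl2 (log2 fold change -0.01, adjusted p = 0.951) and Angptl6 (-0.34, adjusted p = 0.348) did not pass.

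**Figure D1:**
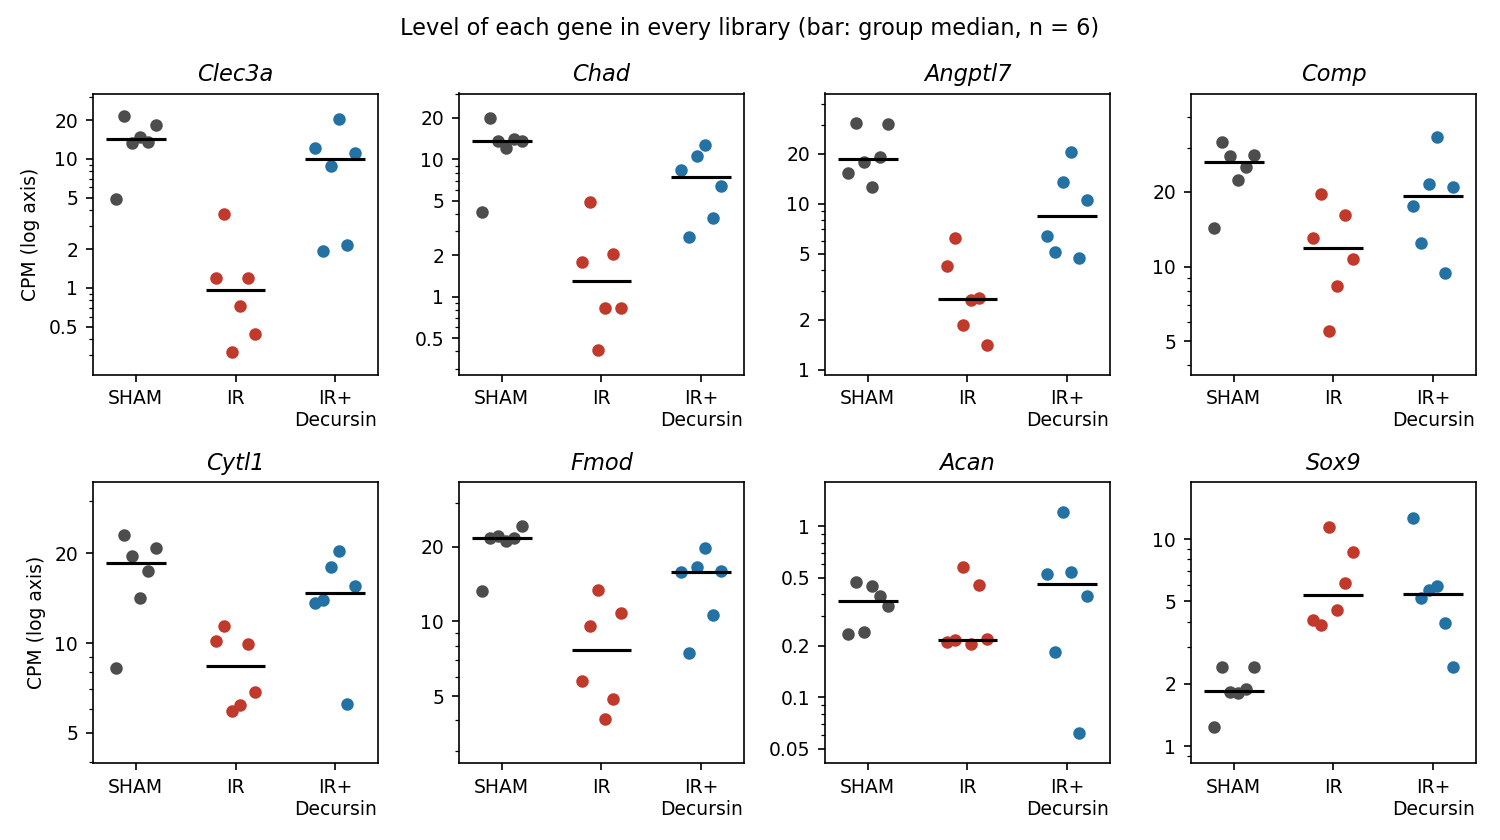
Level of each of the 8 genes (vertical axis, CPM on a log scale) in the 6 libraries of each group, one point a library in order of its number, with a bar at the group median. The IR points lie below all SHAM points for Clec3a and Angptl7 (as for 11.6% of all genes) and above them for Sox9 (as for 15.4%). In FPKM, Clec3a in IR 2 (1.43) was just above SHAM 1 (1.39). IR+Decursin libraries 2 and 5 lie among the IR points for Clec3a and Chad.

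Comp and Cytl1 had much the same high and low libraries over a smaller range. Comp was at 14.3, 31.8, 27.8, 22.4, 25.1 and 28.1 CPM in SHAM 1 to 6, at 13.1, 19.7, 5.51, 8.35, 16.1 and 10.7 CPM in IR 1 to 6, and at 17.6, 12.4, 21.6, 33.2, 9.42 and 21.0 CPM in IR+Decursin 1 to 6. IR 2 and IR 5 were above SHAM 1, and IR+Decursin 4 was above every SHAM library. The log2 fold change was -1.03 ± 0.31 for IR against SHAM. Comp was 0.65 ± 0.31 higher in IR+Decursin than in IR (adjusted p = 0.282, 95% interval -0.01 to 1.31) and -0.38 ± 0.31 against SHAM (adjusted p = 0.384), so neither difference passed.

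Cytl1 was at 8.24, 23.1, 19.6, 14.2, 17.4 and 20.8 CPM in SHAM 1 to 6, at 10.2, 11.4, 5.94, 6.22, 9.92 and 6.85 CPM in IR 1 to 6, and at 13.6, 13.9, 18.0, 20.4, 6.24 and 15.5 CPM in IR+Decursin 1 to 6. All IR+Decursin libraries but IR+Decursin 5 were above every IR library. The log2 fold change was -1.03 ± 0.27 for IR against SHAM. It was 0.80 ± 0.27 for IR+Decursin against IR (adjusted p = 0.153, 95% interval 0.23 to 1.36) and -0.24 ± 0.26 against SHAM (adjusted p = 0.532).

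Fmod was tight in SHAM, at 21.1 to 24.3 CPM in 5 libraries and 13.3 CPM in SHAM 1. In IR 1 to 6 it was at 5.78, 9.63, 13.4, 4.03, 4.89 and 10.8 CPM, and only IR 3 reached the lowest SHAM library. In IR+Decursin 1 to 6 it was at 15.8, 7.44, 16.6, 19.8, 10.6 and 15.9 CPM. The IR library with the most Fmod, IR 3, was the one with the least Clec3a, Chad, Comp and Cytl1. The log2 fold change was -1.35 ± 0.28 for IR against SHAM, 0.83 ± 0.28 for IR+Decursin against IR (adjusted p = 0.157) and -0.52 ± 0.28 against SHAM (adjusted p = 0.165).

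Acan had only 2 to 42 counts a library. Its mean was 0.356 ± 0.102 CPM in SHAM and 0.314 ± 0.162 CPM in IR, and 0.485 ± 0.403 CPM with decursin (SD, n = 6 each), with the highest value, 1.21 CPM, in IR+Decursin 3. No difference was detectable at this depth: -0.18 ± 0.50 for IR against SHAM (95% interval -1.25 to 0.88), 0.62 ± 0.48 for IR+Decursin against IR (adjusted p = 0.504) and 0.44 ± 0.49 against SHAM (adjusted p = 0.531). The last was -0.07 without IR+Decursin 3, and the first had the other sign, up to 0.12, under some settings.

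Sox9 went the other way from the matrix genes. It was at 1.24, 2.41, 1.82, 1.80, 1.89 and 2.41 CPM in SHAM 1 to 6, at 4.07, 3.83, 11.4, 4.57, 6.14 and 8.66 CPM in IR 1 to 6, and at 12.6, 5.21, 5.68, 5.93, 3.92 and 2.41 CPM in IR+Decursin 1 to 6. Every IR library was above every SHAM library, as for 15.4% of genes. All 6 IR+Decursin libraries were above every SHAM library, IR+Decursin 6 by less than 3 digits show. In CPM, Sox9 is thus among the 4.44% of genes with every IR+Decursin library above every SHAM library. For 2.9% of genes every one was below. In FPKM, which carry no library factors, Sox9 in IR+Decursin 6 (0.483) was below SHAM 2 (0.498) and SHAM 6 (0.511). The groups thus overlapped on that scale. Sox9 was 1.74 ± 0.35 higher in IR on the log2 scale. It rose in IR+Decursin against SHAM (1.63 ± 0.35, adjusted p = 0.0024) and was not called between IR+Decursin and IR (-0.11 ± 0.33, adjusted p = 0.888, 95% interval -0.81 to 0.59). The last value was 0.13 without IR 3, 0.05 without IR+Decursin 6 and 0.11 without the 3 libraries with Xist.

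**Figure D2:**
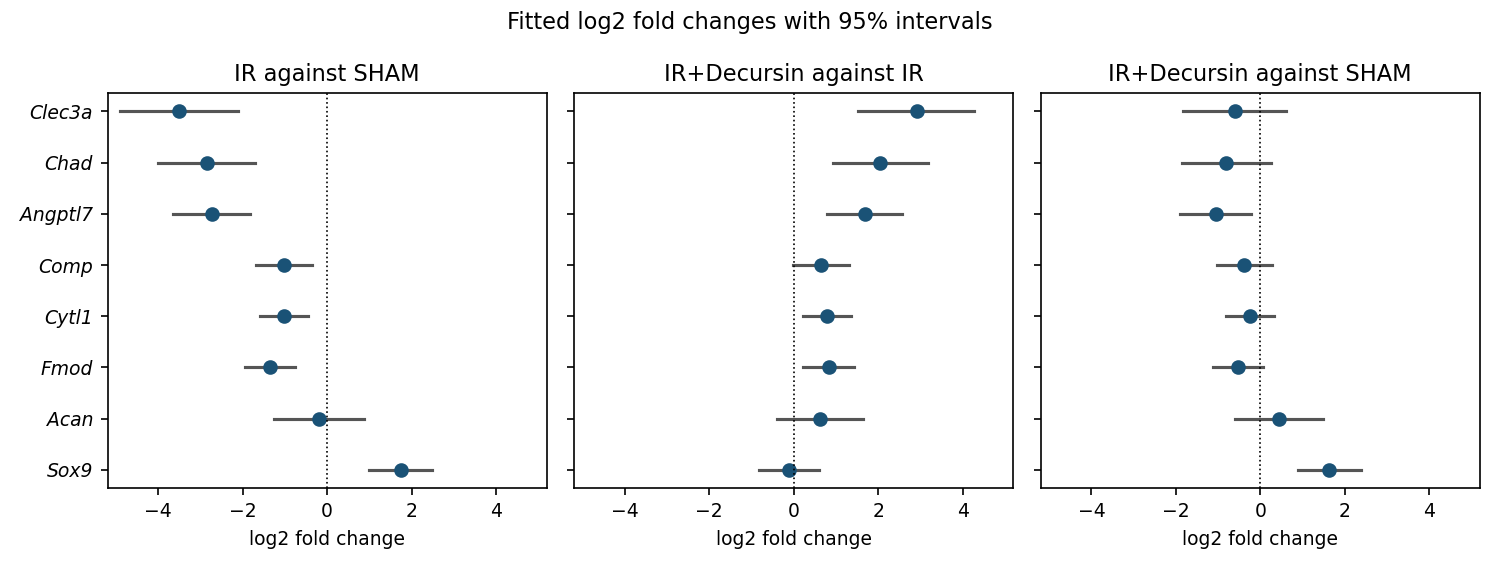
Log2 fold change of each of the 8 genes (horizontal axis) in the 3 comparisons, with 95% intervals of the edgeR fit. Clec3a, Chad, Angptl7, Comp, Cytl1 and Fmod lie left of zero in IR against SHAM (Comp has the nearest interval, -1.69 to -0.36), and Sox9 lies right of it. That contrast guided the choice of genes, so its intervals are a description with no test. In IR+Decursin against SHAM Sox9 is at 1.63.

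None of the 8 genes passed between IR+Decursin and IR, and 0% of the 15088 genes did in edgeR (2712 had an unadjusted p under 0.05). DESeq2 called 314 genes higher and 80 lower in this comparison (2.87% of those with an adjusted p), Clec3a, Chad and Angptl7 among them. With IR+Decursin 1 left out, edgeR called these same 3 and 6.42% of all genes. They were chosen from a contrast that shares the IR libraries, and low values in those libraries enter both. Against SHAM, 1 of the 8 passed (Sox9), where 29.3% of all genes did. Angptl7 was also called in that comparison by DESeq2, by limma on log2(FPKM + 1) and without SHAM 4, IR 2, IR 6 or IR+Decursin 4, fits in which 23.7 to 29.5% of all genes were called. The contrast that chose Angptl7 shares the SHAM libraries with that comparison, and high values in those libraries enter both.

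The spread between hearts of one group was the second subject. Each gene's log2(CPM + 0.5) was taken as its deviation from the mean of its group, so that group differences do not enter, and all 28 pairs of genes were correlated over the 18 libraries with a two-sided permutation test that shuffled libraries within groups. After Benjamini-Hochberg adjustment over 28, 10 pairs passed, exactly the 10 pairs among Clec3a, Chad, Angptl7, Comp and Cytl1. These 5 genes were singled out after their values were seen. Each of the 10 pairs was also called by Spearman's rho (0.79 to 0.93).

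Clec3a and Chad had r = 0.92 (rho 0.87, adjusted permutation p = 9.33e-05, from the smallest p the shuffles allow, 1e-05). Chad and Comp also had r = 0.92 (rho 0.89, adjusted permutation p = 9.33e-05). Comp and Cytl1 had r = 0.89 (rho 0.93, adjusted permutation p = 9.33e-05). The weakest of the 10 was Angptl7 with Cytl1, at r = 0.76 (rho 0.88, adjusted permutation p = 0.00165). The other 18 pairs had r from -0.23 to 0.49, and none passed.

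The 10 correlations did not rest on single hearts. With the 2 libraries farthest from the median of the first gene left out, r was 0.68 to 0.92. Leaving out any 1 library kept all 10 pairs called, with the lowest r at 0.73 to 0.77, and so did leaving out the 3 libraries with Xist (lowest 0.76) or the 2 with the most Myl7 (lowest 0.73). Within single groups r was 0.56 to 1.0 in SHAM, 0.69 to 0.98 in IR and 0.67 to 0.95 in IR+Decursin. With 6 libraries a group the test allows an exact permutation p of 0.00139 at the least, and no pair passed within a group after adjustment (smallest adjusted exact p 0.0538). As background, the median r of Clec3a with 15080 other genes was 0.00 and 0.186% of them were over 0.7. For Chad 0.232% were over 0.7, for Angptl7 0.139%, for Comp 0.292% and for Cytl1 0.0928%.

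**Figure D3:**
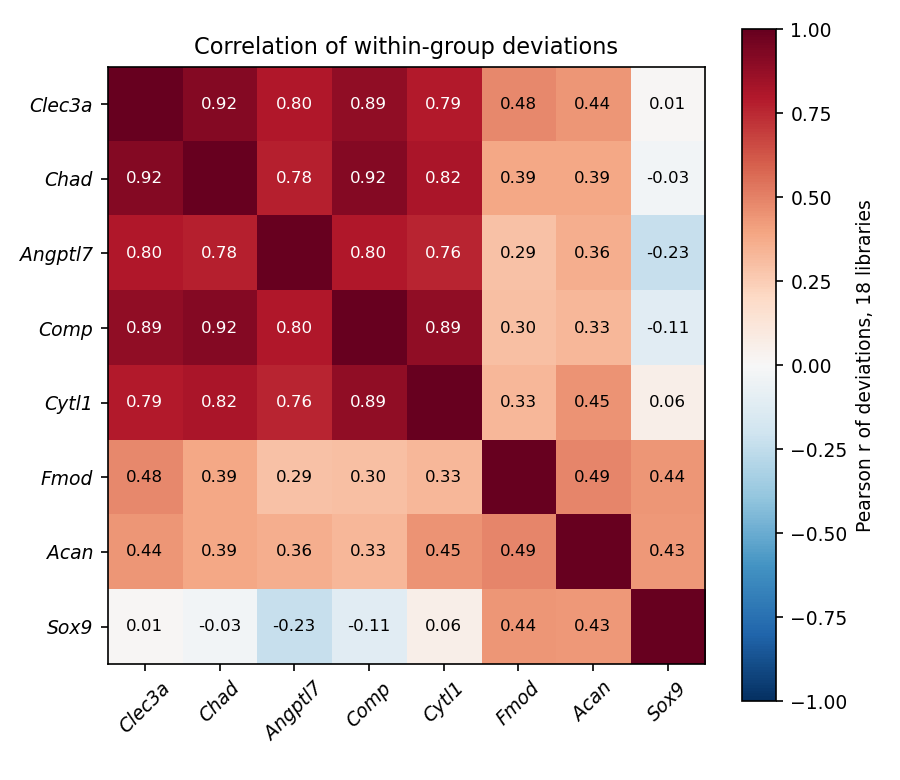
Pearson r of within-group log2 deviations for every pair of the 8 genes over 18 libraries, colour and number giving r. The block of Clec3a, Chad, Angptl7, Comp and Cytl1 is at 0.76 to 0.92, and the pairs outside it are at -0.23 to 0.49.

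The shared movement was easy to see library by library. In SHAM 1 all 5 genes were below their group mean, by 0.96 on the log2 scale on average. In IR 2 all 5 were above theirs, by 1.05, and in IR 3 all 5 were below, with a mean of -0.77. In IR+Decursin 4 all 5 were above by 1.0, and in IR+Decursin 5 all 5 were below, with a mean of -1.01. IR+Decursin 2 had a mean of -0.80, with Cytl1 level with its group mean.

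The genes moved together but not by equal amounts. The SD of the log2 deviations was 0.98 for Clec3a, 0.82 for Chad, 0.67 for Angptl7, 0.56 for Comp and 0.50 for Cytl1, and 1 log2 unit of Comp went with 1.54 units of Clec3a. The same ranking of size held between groups as a description, with Clec3a showing the largest difference from SHAM to IR and Comp and Cytl1 the smallest of the 5. The log2 ratio of Clec3a to Comp had a median of -0.75 in SHAM (-1.55 to -0.57), -3.65 in IR (-4.60 to -2.39) and -1.09 in IR+Decursin (-2.67 to -0.54).

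**Figure D4:**
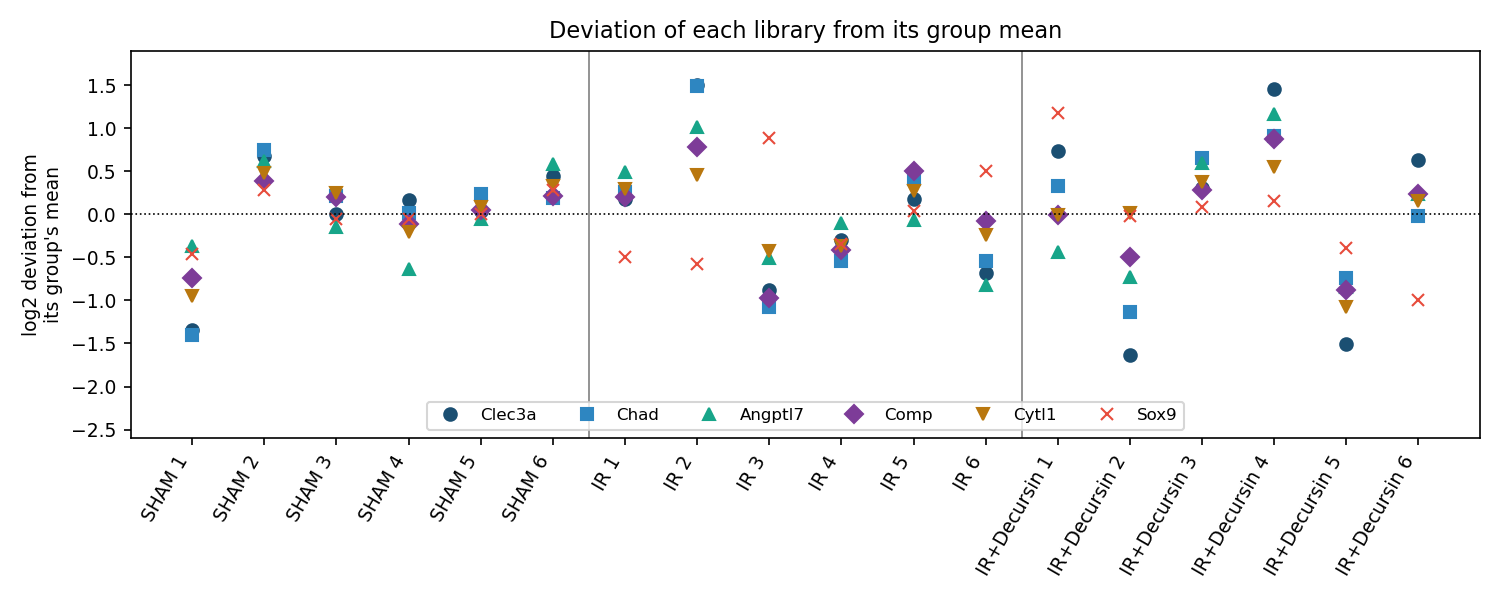
Log2 deviation of 6 genes from their group mean (vertical axis) in each of the 18 libraries. The symbols of Clec3a, Chad, Angptl7, Comp and Cytl1 move together, low in SHAM 1, IR 3 and IR+Decursin 5 and high in IR 2 and IR+Decursin 4, and Sox9 (crosses) is high in IR 3 and IR+Decursin 1.

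For Fmod and Sox9, r with the 5 genes within each group is given as a description of 6 libraries. No pair passed and differences between groups were not tested. Fmod had r of 0.49 to 0.93 with the 5 in SHAM, -0.28 to -0.16 in IR and 0.55 to 0.96 in IR+Decursin. Sox9 had r of 0.80 to 0.95 with them in SHAM, -0.85 to -0.68 in IR and -0.06 to 0.32 in IR+Decursin. SHAM 1 was the lowest SHAM library for 7 of the 8 genes. Without IR 3, Fmod passed with Clec3a (r = 0.70), Chad (0.68) and Comp (0.68), and Acan with Chad (0.58), which made 14 pairs.

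Outside the 8 genes, those most like each member over the 18 libraries were ranked by the same r, as a description. Col11a2, a fibrillar collagen chain of cartilage, was first for Clec3a (0.92) and for Chad (0.85) and among the first 5 for Comp (0.80) and Cytl1 (0.77). Epyc, epiphycan, a leucine-rich proteoglycan of cartilage, was among the first 5 for Clec3a (0.79), Chad (0.85) and Angptl7 (0.79). Col11a2 fell in IR (log2 fold change -1.17 ± 0.29, adjusted p = 0.00215), and so did Epyc (-1.93, adjusted p = 0.0255). Wif1, a secreted Wnt inhibitor, had r = 0.78 with Chad and fell in IR (-1.76 ± 0.32, adjusted p = 0.000207). Others near the 5 were Dkk3, a Dickkopf-related secreted protein (0.82 with Clec3a), Ecrg4 (0.79 with Cytl1), Cd28 (0.84 with Comp) and Prelp, a leucine-rich matrix protein (0.73 with Cytl1). Mfap1a was first for Angptl7 (0.81). Cyp2e1 was also among the first 5 for Comp (0.82) and Chad (0.78). So were Mtcp1 (0.76) and Klhdc1 (0.74) for Angptl7, and Stk32b (0.74) and Mcpt4 (0.71) for Cytl1. Some near genes rose in IR instead. Agmo (0.78 with Clec3a, 0.79 with Comp) rose by 0.53 on the log2 scale (adjusted p = 0.00199). Slc2a3 (0.76 with Clec3a, 0.78 with Comp) rose by 1.06 (adjusted p = 0.00016).

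Sox9 kept other company. Its nearest genes were Kirrel (0.92), Bgn, the small proteoglycan biglycan (0.90), Actn1, an actin crosslinker (0.90), Plat, tissue plasminogen activator (0.89), and Fat1 (0.89). All 5 rose in IR, Bgn by 1.26 on the log2 scale (adjusted p = 2.86e-05) and Actn1 by 1.45 (adjusted p = 5.85e-05). Of all genes, 4.17% had r over 0.7 with Sox9, more than for any other of the 8. Fmod was nearest to Ecm2, a leucine-rich matrix protein (0.80), and Acan, at its few counts, reached only 0.70 (Helz2).

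Related genes were counted from lists chosen with earlier results known. The counts below stand beside 25.3% of all genes higher and 21.7% lower in IR than in SHAM. Of 13 tested genes of cartilage matrix beyond the 8, 3 rose and 3 fell in IR (median log2 fold change 0.20, against 0.00 over all genes). Col11a2, Epyc and Hapln1, the link protein that holds aggrecan to hyaluronan, fell (Hapln1 -1.38 ± 0.55, adjusted p = 0.0448). Col11a1, the partner chain of Col11a2 in collagen XI, rose (2.49, adjusted p = 0.00928), as did Frzb, a secreted Wnt antagonist (1.02 ± 0.28, adjusted p = 0.00685), and Cnmd, chondromodulin (1.33, adjusted p = 0.0224). Hapln1 followed the 5 genes at r = 0.62 to 0.81, and Frzb and Col11a1 followed Sox9 (0.84 and 0.85).

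Among 12 tested leucine-rich proteoglycans, the family of Fmod, 5 rose and 3 fell in IR. Tsku rose by 1.93 on the log2 scale (adjusted p = 1.07e-05) and Lum, lumican, by 0.92 (adjusted p = 0.00025), whereas Prelp fell by 0.51 (adjusted p = 0.00161). Among 6 tested genes that were thrombospondins (the family of Comp) or matrilins, 4 rose and none fell. Those that rose were Thbs1 (2.24, adjusted p = 0.00151), Thbs2 (1.44, adjusted p = 0.000148), Thbs3 (1.30, adjusted p = 1.43e-05) and the matrilin Matn2 (0.88, adjusted p = 2.89e-05). Comp was lower in the same hearts. Vcan, versican, the lectican nearest to Acan in kind, rose (1.63, adjusted p = 0.000419).

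Of 12 tested transcription factors of cartilage formation, 7 rose in IR and none fell. Runx1 rose by 2.72 on the log2 scale (adjusted p = 0.00016), Runx2, a factor of cartilage maturation and bone, by 2.47 (adjusted p = 5.94e-05), Trps1 by 1.28 (adjusted p = 5.2e-05) and Gli3 by 1.08 (adjusted p = 0.000291). Of 14 matrix proteases and inhibitors, 5 rose and 2 fell. The aggrecan-cutting protease Adamts4 rose by 4.74 (adjusted p = 0.000171), Adamts12 by 3.04 (adjusted p = 0.000165) and Mmp14 by 3.25 (adjusted p = 8.54e-06). None of the genes on these lists passed between IR+Decursin and IR in edgeR, where 0% of all 15088 genes did. Against SHAM, IR+Decursin had 1 of 13 cartilage matrix genes higher and none lower, and 6 of 12 transcription factors higher, beside 17.5% of all genes higher and 11.8% lower.

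Markers of tissue pieces and cell types moved with these genes to different degrees. The hyaline cartilage markers were near 0: Col2a1, the collagen that defines hyaline cartilage, had 0 to 10 counts a library, and the 9 markers summed to 1.24 to 6.75 CPM. At these low levels their mean log2 level had r of 0.41 to 0.55 with the 5 genes within groups. Only 2 of them passed the filter on low counts, Cnmd (r of 0.18 to 0.46 with the 5 genes) and the collagen gene Col9a2 (-0.36 to -0.14). The 11 markers of heart valve stroma (none at 0 in every library) summed to 602 to 725 CPM in SHAM, 714 to 896 in IR and 830 to 957 in IR+Decursin. Of these 11, 4 rose in IR (Tgfbi, Lum, Thbs2 and Nfatc1) and 3 fell (Wif1, Hapln1 and Timp3). Within groups the mean log2 level of this list had r of 0.87 with Clec3a, 0.91 with Chad, 0.75 with Angptl7, 0.89 with Comp and 0.77 with Cytl1, against 0.42 with Fmod and 0.01 with Sox9. The single markers differed: Wif1, Dkk3 and Hapln1 had r of 0.62 to 0.82 with the 5 genes, and Cilp2, Prg4 and Penk 0.19 to 0.62. Tgfbi, Timp3, Lum, Thbs2 and Nfatc1 had only -0.14 to 0.25. The part of the valve tissue in the result was not tested.

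The 9 atrial markers had r of 0.48 to 0.68 with the 5 genes, and the 7 melanocyte markers, of cells that populate mouse valves, 0.38 to 0.59. Of the melanocyte markers 4 failed the filter on low counts, and the 3 that passed had r of -0.26 to 0.30 with the 5 genes. Atrial markers summed to 252 to 542 CPM in SHAM, 215 to 1960 in IR and 194 to 2040 in IR+Decursin, and melanocyte markers to 59.0 to 81.4, 36.1 to 55.4 and 42.2 to 62.1 CPM. Of 3 tested melanocyte markers 2 fell in IR, Dct (-1.41 ± 0.32, adjusted p = 0.00136) and Mitf (-0.41, adjusted p = 0.000754), and of 7 tested atrial markers none fell and Nppa rose (1.38 ± 0.51, adjusted p = 0.0365). IR 2, with the most Myl7 in IR (215 CPM), also had the most Clec3a, Chad, Angptl7, Comp and Cytl1 in IR, and IR 3, with the least (2.00 CPM), had the least Clec3a, Chad, Comp and Cytl1. In IR+Decursin the library with the most Myl7, IR+Decursin 6 (251 CPM), was not the highest for any of the 5 genes, and IR+Decursin 4, the highest for all 5, had Myl7 at 31.3 CPM. The part of atrial tissue in the result was not tested. Without IR 2 and IR+Decursin 6, the log2 fold change for IR against SHAM was -4.21 for Clec3a, -3.45 for Chad and -3.04 for Angptl7. IR 2 was the highest IR library for these genes.

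Scar genes varied with Sox9 more closely than with the 5 genes, a difference that was not tested. The 17 activated fibroblast markers, of which 16 rose in IR, had r = 0.83 with Sox9 and -0.02 to 0.17 with Clec3a, Chad, Angptl7, Comp and Cytl1. They summed to 860 to 1030 CPM in SHAM, 8980 to 14500 in IR and 1010 to 13700 in IR+Decursin. Lists beyond scar genes also had higher r with Sox9 than with the 5 genes. For macrophages r was 0.64 (-0.09 to 0.01 with the 5 genes) and for smooth muscle and elastic vessel wall 0.62 (0.00 to 0.36). For resident fibroblasts it was 0.57 (-0.22 to -0.04). IR+Decursin 5 and IR+Decursin 6, the hearts with the least Col1a1 of their group, had Clec3a at 2.16 and 11.2 CPM. IR+Decursin 4, with Col1a1 at 2440 CPM, had Clec3a at 20.4 CPM. Library total had r of -0.14 to 0.10 with the 5 genes and mitochondrial share 0.22 to 0.38.

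**Figure D5:**
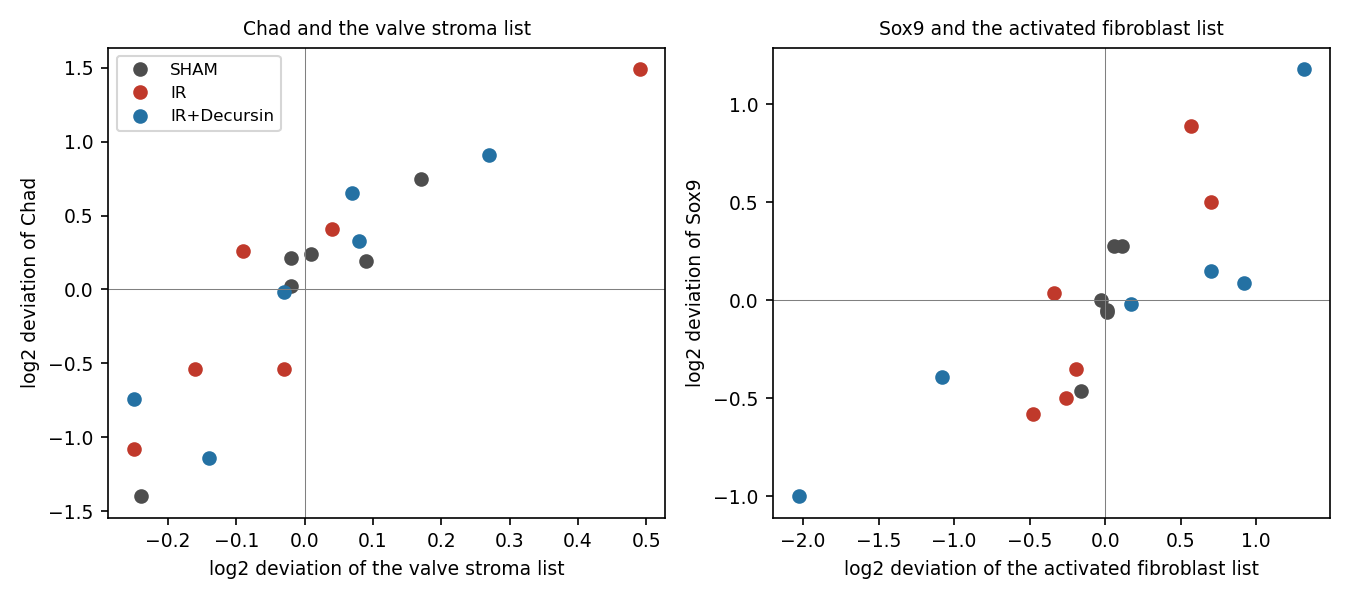
Within-group log2 deviations over 18 libraries of Chad against the valve stroma list (left, r = 0.91) and of Sox9 against the activated fibroblast list (right, r = 0.83), one point a library, coloured by group. IR 2 is the point at the upper right of the left panel, and IR+Decursin 6 the one at the lower left of the right panel.

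The libraries with Xist were among the low ones for several of these genes. IR 3 was the lowest IR library for Clec3a, Chad, Comp and Cytl1, and IR+Decursin 2 was the lowest of its group for Clec3a, Chad and Fmod. For other genes this was not so. IR 3 was the highest IR library for Fmod, Acan and Sox9. IR 4 ranked 3 of 6 from the lowest for Clec3a, Chad, Angptl7 and Sox9, as did IR+Decursin 2 for Cytl1 and Sox9. Without these 3 libraries the log2 fold change for IR against SHAM was -3.14 for Clec3a, -2.44 for Chad, -2.54 for Angptl7, -1.41 for Fmod, -0.74 for Comp, -0.85 for Cytl1 and 1.56 for Sox9. Comp then no longer passed, which left 6 of the 8. For IR+Decursin against IR the values without them were 2.75 for Clec3a, 1.81 for Chad and 1.63 for Angptl7.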

How the data were processed

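RNA of 18 mouse hearts (3 groups of 6 separate animals, grouped by the labels) was sequenced, 1 library per animal. The authors deposited raw read counts and FPKM per gene symbol for 25731 symbols. Per the submitters' processing notes, fastp, HISAT2, HTSeq and the build GRCm39 were used. Versions, the annotation and the strand setting are not stated. FPKM values as deposited equal the counts scaled by gene length and library total (347198 values, largest relative deviation 1.58e-09).

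Counts were fitted with edgeR 4.0.16 in R 4.3.3: filterByExpr by group (15088 symbols), TMM factors, all 18 libraries in 1 quasi-likelihood fit with 15 residual degrees of freedom, two-sided F-tests, Benjamini-Hochberg adjustment over all symbols, called under 0.05. Levels are CPM with TMM factors. Co-variation used deviations of log2(CPM + 0.5) from group means, 100000 shuffles within groups and adjustment over 28 pairs (over 84 within groups). Marker lists are means of log2(CPM + 1). Scripts were tested on simulated data. At 27.5 to 35.0 M counts a library, genes at a few counts a library (Acan, Hapln1, Epyc) also carry counting error.

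The 8 genes, the 25 lists and the tests were chosen with earlier results of these data known. Named genes were drawn from the 8 and the 5 most alike genes of each by r (mean of at least 1 CPM). Also drawn on were up to 4 genes with the smallest adjusted p from each list. Hapln1, Wif1, Dct, Col2a1, Cilp2, Col1a1 and Myl7 were added. Not every gene eligible in this way is named. Other genes named beside a count of 5 or fewer, and the values without libraries high in Xist (over 1000 counts) or Myl7 (over 5000) were chosen after values were seen. Cilp2, a matrix protein also on the valve list, was not called (-0.44 in IR). Alternatives were DESeq2 1.42.0, RLE and total-count scaling, other low-count filters, fits of the compared groups alone, limma 3.58.1 on log2(FPKM + 1) and log2(FPKM + 0.1), the replicate number as a block, and each library left out. Promoters came from RefSeq on GRCm38.p6, and GENCODE M21 served for names of overlapping genes. No batch term could be fitted.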

Additional observations from a re-analysis of the deposited data

Results flagged for a closer look

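Of 24 combinations of a gene and a group, 4 had a library far from the other 5 (its gap to the nearest, as a share of the group's range on the scale of log2(CPM + 0.5), above Dixon's 95% critical value), where chance flags about 1 in 20. SHAM 1 was the lowest library for Clec3a (gap share 0.666, 4.90 CPM), Chad (0.662, 4.16 CPM) and Fmod (0.763, 13.3 CPM). Clec3a and Chad are 2 of the genes that moved together, and within SHAM Fmod had r of 0.93 with Clec3a and 0.91 with Chad. These flags of SHAM 1 are thus not separate observations. IR+Decursin 5 was the lowest of its group for Cytl1 (0.656, 6.24 CPM). Taken on CPM instead, the share passed for Fmod in SHAM 1 (0.708), Clec3a in IR 2 (0.745), Chad in IR 2 (0.635) and Sox9 in IR+Decursin 1 (0.656), so which libraries stand out depends on the scale. Without SHAM 1, and likewise without IR+Decursin 5, all 10 pairs among Clec3a, Chad, Angptl7, Comp and Cytl1 were still called.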

How the results depend on the processing

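Over 24 fold changes of the 8 genes and 692 alternative values, 683 kept their direction and call or moved by less than the spread between animals, 5 moved and 4 reversed. Under limma on log2(FPKM + 1), whose pseudocount shrinks low genes, IR against SHAM was -1.83 for Clec3a, -1.87 for Chad, -1.91 for Angptl7 and 0.89 for Sox9, and IR+Decursin against IR was 1.37 for Clec3a. Sox9 between IR+Decursin and IR ranged from -0.47 to 0.13 with 1 library left out and was 0.13 without IR 3, 0.05 without IR+Decursin 6 and 0.11 without the libraries with Xist, and Acan between IR+Decursin and SHAM was -0.07 to 0.67, lowest without IR+Decursin 3. The cause was not tested. The number of the 8 genes called between IR+Decursin and IR was 0, 3 under DESeq2 and 0 to 3 with 1 library left out. Between IR+Decursin and SHAM it was 1, 2 under DESeq2 and under limma on log2(FPKM + 1), and 1 to 2 with 1 library left out. Between IR and SHAM it was 7, 6 without the libraries with Xist, and 6 under total-count scaling, where the median of all genes lay at 0.31 and 7012 genes were higher and 1056 lower (3810 and 3269 with TMM). Pairs called were 10 to 14. Acan failed the filter of 1 CPM in 6 libraries and gave no value there.

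Replicate numbers are shared between groups only as numbers: 3 of 18 same-number pairs of libraries had r over 0.1 (-0.49 to 0.38), and 3 of 18 libraries were nearest to their own number. With the number as a replicate block, 7, 0 and 1 of the 8 genes were called in IR against SHAM, IR+Decursin against IR and IR+Decursin against SHAM, and 3591 genes were higher and 3124 lower in IR among all genes. All 10 pairs among Clec3a, Chad, Angptl7, Comp and Cytl1 were called under it too.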
